A study of Drosophila melanogaster with 2 samples.

Results

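Distal intronic peaks are places inside genes, away from starts of protein-coding genes, at which the Ribbon protein was recovered on chromatin in fly embryos. They were taken from the series list of peaks that passed a limit on the IDR (irreproducible discovery rate). That rate measures how well peak ranks repeat between sets of peaks. Of all peaks in the list, 1252 (27.2%) overlapped no peak of either replicate's own list. Being in the series list therefore does not mean being found in each replicate. A peak was kept when its summit lay more than 2000 bp from every transcription start site (TSS) of a protein-coding gene, inside such a gene and outside every annotated exon. The rule used position alone and no measured strength. It kept 815 of 4606 peaks, or 17.7% (exact 95% interval 16.6% to 18.8%). Sequence that meets the same rule makes up 28.7% of the bases of the chromosome arms, so the peaks were 0.616 times as frequent there as an even spread over bases gives. Distal intergenic peaks, beyond the same distance but outside genes, numbered 343, and promoter peaks, within 500 bp of a TSS, numbered 2395.

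The material was whole Drosophila melanogaster embryos of the rib-GFP strain, 0 to 24 h old, which carry an insertion targeting rib and express a rib-eGFP fusion. Chromatin immunoprecipitation with sequencing was done in 1 group of 2 biological replicates. The labels describe an antibody to GFP, although their antibody field reads rib. There was no second condition, and a possible control experiment named in the labels was not analysed here, so no value has a background measured in control samples beside it. The embryos pool all tissues and most of embryogenesis, so a peak cannot be placed in a tissue or stage, and a tagged protein stands in for the native one.

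Ribbon, the product of rib, is a nuclear protein with a BTB domain, through which proteins of this family pair with one another. It is known for the shaping of epithelial tubes, in particular the tracheae and the salivary glands. In flies, many enhancers lie in introns, often in the long first introns of developmental regulators. A peak in an intron marks recovery of DNA there, and does not by itself tell which gene is controlled.

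The sequences at some of the strongest of these peaks differ in composition and in the motifs they hold. Each line gives 101 bases centred on the summit, read from the plus strand of Release 6 (dm6), for a gene whose intron holds the peak. Tlk, CHES-1-like, Btk, CG32486, upSET and Kr-h1 are the hosts of the strongest peaks from which sequence is shown. CG5953 and Pits are shown for GAGAG and Glut4EF and Myc for CACACA, the 2 motifs of 18 searched that were more frequent at summits than in sequence nearby. Left out are peaks with 1 match each in fru, stronger than that in Pits, and in CG34417, stronger than those in Glut4EF and Myc. The stretches at Pits and Myc hold 5 and 6 matches, so they do not give the usual density of these motifs. Capitals mark GAGAG and CACACA on either strand, where overlapping matches run together, so that CTCTC and TGTGTG are the same motifs read from the other strand.
Tlk (X:3742150-3742250): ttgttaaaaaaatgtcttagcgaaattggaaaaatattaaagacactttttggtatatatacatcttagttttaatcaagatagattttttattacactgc
CHES-1-like (X:7706944-7707044): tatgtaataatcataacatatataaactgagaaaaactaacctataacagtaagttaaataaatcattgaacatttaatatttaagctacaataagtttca
Btk (2L:8292564-8292664): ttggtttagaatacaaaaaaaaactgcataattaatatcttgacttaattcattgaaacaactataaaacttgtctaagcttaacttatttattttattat
CG32486 (3L:3060734-3060834): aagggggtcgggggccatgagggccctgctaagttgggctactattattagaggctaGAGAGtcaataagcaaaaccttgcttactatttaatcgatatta
upSET (3L:14004187-14004287): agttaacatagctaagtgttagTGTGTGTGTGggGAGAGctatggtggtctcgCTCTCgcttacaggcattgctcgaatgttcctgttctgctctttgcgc
Kr-h1 (2L:6085901-6086001): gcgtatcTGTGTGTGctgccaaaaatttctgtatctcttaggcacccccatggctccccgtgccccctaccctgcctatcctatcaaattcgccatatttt
CG5953 (2L:16526127-16526227): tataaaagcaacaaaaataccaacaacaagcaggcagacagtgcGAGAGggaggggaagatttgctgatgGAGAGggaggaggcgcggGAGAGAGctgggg
Pits (X:12574945-12575045): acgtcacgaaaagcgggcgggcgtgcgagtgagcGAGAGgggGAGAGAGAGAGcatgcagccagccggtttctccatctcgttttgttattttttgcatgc
Glut4EF (3R:9932570-9932670): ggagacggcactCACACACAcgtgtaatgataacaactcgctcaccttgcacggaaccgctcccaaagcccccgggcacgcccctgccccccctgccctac
Myc (X:3378720-3378820): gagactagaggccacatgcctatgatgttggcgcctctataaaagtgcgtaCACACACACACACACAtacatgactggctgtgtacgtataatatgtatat
The stretches at Tlk, CHES-1-like and Btk were rich in A and T and held neither motif. Their G and C made up 22.8%, 19.8% and 19.8% of bases. The stretch at upSET held both motifs within a few bases of each other, and that at Myc a long run of the CA repeat.

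The strongest distal intronic peaks were in Tlk, mam and CHES-1-like, and all 20 strongest overlapped a peak of each replicate. Strength is given as the signal assigned by the peak caller, in an arbitrary unit of that program. The pooled signal is a single value with no replicate error, and a replicate's signal is that of its ranked region at the same place. The first was in an intron of Tlk, a kinase that acts on chromatin assembly, with its summit at X 3742200, 2303 bp from the nearest TSS. Its pooled signal was 678, with 354 in replicate 1 and 337 in replicate 2. The next was in mam, the Mastermind coactivator of Notch, with 636 pooled, 439 in replicate 1 and 177 in replicate 2. CHES-1-like, a forkhead domain factor, had 514 pooled, 259 in replicate 1 and 260 in replicate 2. These 3 were strong in both replicates, although at mam the replicates differed by far more than at the other two. The summits in mam and CHES-1-like lay 1047 and 781 bp from the start of a non-coding gene.

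CG32486 followed with 455 pooled, 229 in replicate 1 and 233 in replicate 2, in an intron 5705 bp from the nearest TSS. The peak in upSET, a chromatin protein with a SET domain, had 408 pooled, 246 in replicate 1 and 148 in replicate 2. The peak in Kr-h1, a zinc finger protein of the juvenile hormone and ecdysone responses, had 407 pooled, 254 in replicate 1 and 151 in replicate 2. At CG12769 the pooled signal was 369, with 191 in replicate 1 and 171 in replicate 2. Btk, a Tec-family tyrosine kinase, had 348 pooled, 179 in replicate 1 and 165 in replicate 2. Over the 20 strongest, signal ran from 107 to 439 in replicate 1, with a median of 183, and from 71.6 to 337 in replicate 2, with a median of 143. Replicate 1 had the higher value at 16 of the 20.

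The rest of the 20 strongest had pooled signals between 256 and 332. Their hosts were of varied function. They included Nak, the Numb-associated kinase (325), Gug, the Atrophin corepressor (300), and Tis11, which promotes mRNA decay (295). Pdk, which inactivates pyruvate dehydrogenase, had 281, and fru, a BTB factor of male courtship, had 276. Roc2, a RING subunit of cullin ubiquitin ligases, had 259, and sbb, a nuclear corepressor also called brakeless, had 256. The other hosts were CG6191 with the overlapping gene CG45088 (332), CG5953 (295), CG34417 (275), dnr1 (273) and Evi5 (257). The peak in fru was among the least even, with 187 in replicate 1 and 71.6 in replicate 2. The peak in sbb had the lowest replicate 1 signal of the 20, at 107, and 140 in replicate 2.

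**Figure D1:**
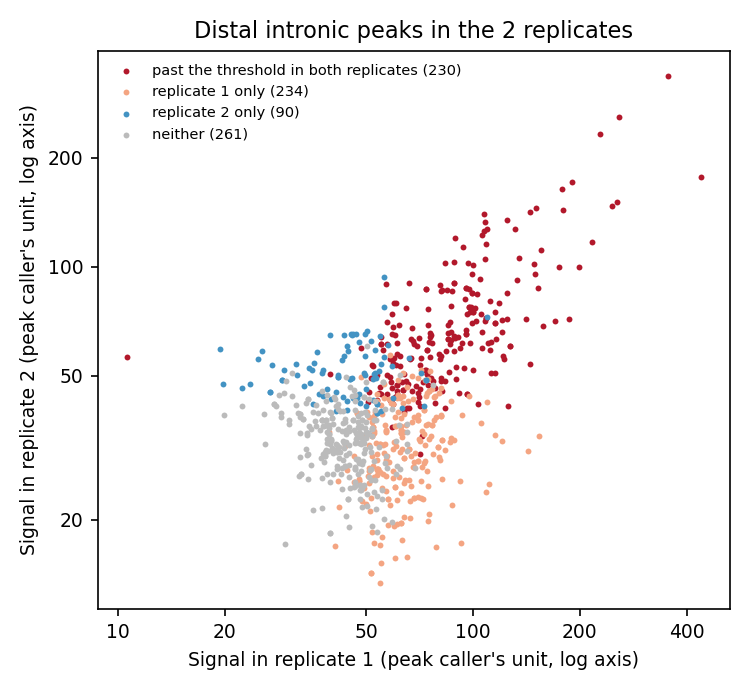
Signal of each distal intronic peak in replicate 1 (horizontal, log axis) and replicate 2 (vertical, log axis), in the peak caller's unit, for the 811 peaks with a region in both ranked lists; colours show in which replicate's thresholded list the peak is found. Peaks found in both replicates take the upper right, and most of the others lie under 100 in each replicate.

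Most distal intronic peaks were weaker, and 28.2% of them were found in both replicates. The pooled signal had a median of 90.8, with quartiles at 73.8 and 117, and ran from 2.00 to 678. Of the 815 peaks, 464 (56.9%) overlapped a peak of replicate 1 and 320 (39.3%) a peak of replicate 2. They overlapped both at 230 sites (exact interval 25.2% to 31.4%), replicate 1 alone at 234, replicate 2 alone at 90 and neither at 261 (32.0%). Of all peaks in the list, 34.3% overlapped both. Among the 811 with a region in both ranked lists, signal was higher in replicate 1 at 656, and the medians were 56.1 in replicate 1 and 39.6 in replicate 2. Across these peaks, which share libraries and are not independent, the correlation of log2 signal was 0.51 (Pearson's r) or 0.39 (Spearman's rho). The values were 0.64 and 0.48 for promoter peaks.

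Distal intronic peaks repeated less often than promoter peaks. They overlapped both replicates at 28.2%, against 37.6% of promoter peaks (odds ratio 0.652, 95% interval 0.545 to 0.778, two-sided Fisher's exact test, adjusted p 6.13e-06 over 6 tests). Signal was above the list median at 380, or 46.6%, against 54.3% of promoter peaks (odds ratio 0.735, interval 0.624 to 0.864, adjusted p 4.75e-04), where 50% of all peaks are above it. They overlapped a peak of the authors' conservative list at 618, or 75.8%, against 80.9% of promoter peaks (odds ratio 0.740, adjusted p 0.00425) and 78% of all peaks. Peaks lie in groups and were tested as if independent, which makes these p-values too small. Among distal intronic peaks beyond 5000 bp, the difference in overlap with the conservative list was not past the threshold (odds ratio 0.767, adjusted p 0.0733).

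No difference from distal intergenic peaks passed the threshold in these 3 measures. The share in both replicates was 28.2%, against 32.9% of distal intergenic peaks, and the odds ratio was 0.800, with a 95% interval of 0.605 to 1.06 (two-sided Fisher's exact test, adjusted p 0.181). The share above the median signal was 46.6% in each, with an odds ratio of 0.999 (interval 0.770 to 1.30, adjusted p 1). At the upper quartile of signal instead, distal intronic peaks were less frequent (odds ratio 0.675, adjusted p 0.0165). Overlap with the conservative list was 75.8%, against 75.2% of distal intergenic peaks (odds ratio 1.03, interval 0.761 to 1.40, adjusted p 0.987).

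Overlap with both replicates was also counted within ranges of signal. In the group above the highest quartile of the list, 138 of 152 distal intronic peaks (90.8%, interval 85.0% to 94.9%) overlapped both replicates, against 86.2% of distal intergenic and 88.5% of promoter peaks. In the group below it, 71 of 228 (31.1%) did, against 35.6% of distal intergenic and 34.1% of promoter peaks. In the group just below the median, with signals from 75.2 to 93.2, the share was 7 of 208 (3.37%). It was 3.09% of distal intergenic and 2.85% of promoter peaks there. In the weakest group it was 14 of 227 (6.17%, interval 3.41% to 10.1%), against 10.5% of distal intergenic and 13.9% of promoter peaks (interval 11.1% to 17.1%). Part of the weakest group lies beside other peaks: 72 distal intronic peaks overlapped a stronger peak of the list, with a median signal of 11.7, and of the 70 with a signal under 50, 65 did so.

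**Figure D2:**
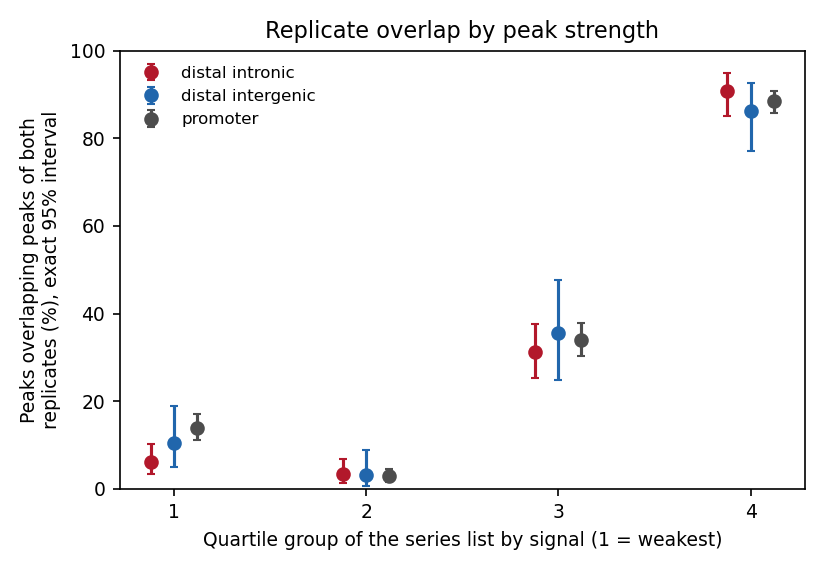
Share of peaks that overlap peaks of both replicates (vertical, percent) in 4 groups of the series list cut at the quartiles of pooled signal (horizontal, weakest first), for distal intronic, distal intergenic and promoter peaks; bars are exact 95% intervals. The share is at most 13.9% in both weaker groups and between 86.2% and 90.8% in the strongest, in each class.

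The peaks gathered in first introns and in genes that also had a peak at a promoter. Of the 815, 498 (61.1%) lay in the first intron of a coding transcript, while first introns hold 37.1% of the bases that meet the rule. Among the 20 strongest it was 15, and among the 100 strongest 73. Since the rule set the distance from TSSs and long first introns begin at one, this is a description. Quartiles of the distance to the nearest TSS were 3240, 5277 and 9200 bp, with a highest value of 78332 bp. The nearest TSS belonged to the host gene for 618 of the peaks (75.8%). A further peak of the list lay within 1000 bp of 266 of them and within 5000 bp of 573. Of the 815, 13 were within 500 bp and 52 within 2000 bp of the start of a non-coding gene, and 4 within 20 kb of rib. Among the 20 strongest, CHES-1-like (781 bp), Roc2 (1018 bp), mam (1047 bp), Tis11 (1371 bp) and Btk (1887 bp) were within 2000 bp of such a start.

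The share found in both replicates neither grew nor shrank steadily with distance from the TSS. Both replicates had the peak at 24.8% of those 2001 to 3000 bp away, 27.8% at 3001 to 5000 bp, 35.5% at 5001 to 10000 bp, 20.3% at 10001 to 20000 bp and 26.9% beyond. The exact intervals of neighbouring groups overlapped except between 5001 to 10000 bp (29.5% to 41.8%) and 10001 to 20000 bp (13.9% to 28.0%). Just inside the distance limit were peaks in ttv, at 2014 bp with a signal of 110, CG8785 (2015 bp, 73.1) and CHES-1-like (2031 bp, 514). Just outside it were peaks in MTF-1, at 1994 bp with a signal of 92.3, jim (1988 bp, 51.6) and crol (1983 bp, 128).

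Density differed between chromosome arms. It was 26.0 peaks per Mb of sequence meeting the rule on 2L, 25.1 on 2R and 25.4 on 3L. The other arms were lower, with 16.0 on 3R, 17.0 on X and 3.23 on chromosome 4, which had 1 peak, and none on Y. The average was 20.6. On the large arms, the share of these peaks was close to the share of all peaks in the list. These shares were 19.8% and 18.6% on 2L, 20.4% and 22.0% on 2R, and 23.8% and 22.4% on 3L. They were 21.1% and 21.8% on 3R, and 14.8% and 14.8% on X. Chromosome 4 had 0.123% and 0.347%, and Y had no peak of any class. A further 37 regions met the rule and passed the same score of 830 but were not in the series list, and were not counted. Of these, 25 lay on 3R and 8 on 2L.

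The 815 peaks lay in 407 genes, 9.38% of the 4339 protein-coding genes with any intron sequence that meets the rule. A set of 185 genes held 2 or more and 30 held 5 or more, and those 30 held 213 of the peaks. Of the hosts, 229 (56.3%) also had a promoter peak, against 28.3% of the 4339 genes and 18.2% of all protein-coding genes. Hosts had a median of 14931 bp that meets the rule, against 1413 bp over the 4339 genes. Within 10001 to 30000 bp of such sequence, 52.1% of hosts had a promoter peak, against 31.1% of all genes of that length. Long genes often have several starts, which raises the chance of a promoter peak, and the share was not corrected for that.

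Eip75B held the most peaks, 24. It is an early gene of the response to ecdysone, the steroid hormone of molting, and encodes a nuclear receptor. Over these 24, the pooled signal ran from 5.71 to 198 with a median of 95.7. In replicate 1 signal ran from 30.3 to 128 with a median of 72.5, and in replicate 2 from 21.6 to 74.9 with a median of 34.5. Replicate 1's list held 18 of them, replicate 2's 10, and both 9. The strongest, at 3L 18002413, had 198 pooled, 121 in replicate 1 and 71.5 in replicate 2. It ranked 41 among the distal intronic peaks, so the gene stood out by number rather than by strength. Counts per gene are not scaled by length. Per 100 kb of intron that meets the rule, Eip75B held 35.0 peaks. That was fewer than CHES-1-like (63.5), PRAS40 (57.9), aop (52.6) and brat (44.2).

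Among other genes of that response, EcR, the ecdysone receptor, and Eip74EF, an Ets factor among the early genes, held 9 each. The highest in EcR had a signal of 140 pooled, 110 in replicate 1 and 42.4 in replicate 2, and 4 of its 9 were in both replicates. The highest in Eip74EF had 180 pooled, 125 in replicate 1 and 71.8 in replicate 2, and 3 of its 9 were in both. Hr4, a nuclear receptor of the same cascade, held 7, with 162 pooled, 86.6 in replicate 1 and 66.1 in replicate 2 at the highest. Each of these 3 genes had both repeated and unrepeated peaks.

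After Eip75B, the most peaks were in sbb and bun. The corepressor gene sbb held 12, all in first introns and 6 in both replicates. The gene bun, of the TSC22 family, held 12 as well, with 245 pooled, 135 in replicate 1 and 106 in replicate 2 at the highest, and 2 in both replicates. The Hox cofactor gene hth and the zinc finger gene jing held 8 each. These 2 genes have 116275 and 92986 bp that meet the rule, so their densities were low, at 6.88 and 8.60 per 100 kb. PRAS40, a regulator of TOR signalling, Mef2, the myogenic factor, aop, an Ets repressor, and brat, a translational repressor, held 7 each. So did Glut4EF, a transcription factor gene, in introns it shares with CG46467, and simj, of the NuRD complex, held 6, as did 8 further genes with a lower summed signal. None of the 8 peaks of jing and none of the 7 of brat was in both replicates, against 28.2% of all distal intronic peaks. Pooled signal was at most 101 in jing and 112 in brat, below the list's highest quartile of 129. In the signal groups below that quartile, 3.37% to 31.1% of distal intronic peaks were in both replicates. In jing signal ran from 47.6 to 66.9 in replicate 1 and from 24.8 to 36.1 in replicate 2. Counts per gene include peaks that overlap a stronger peak, among others in Eip75B, sbb, aop, brat and jing. Such a pair can take its replicate signal from the same region, so these are not all separate sites.

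**Figure D3:**
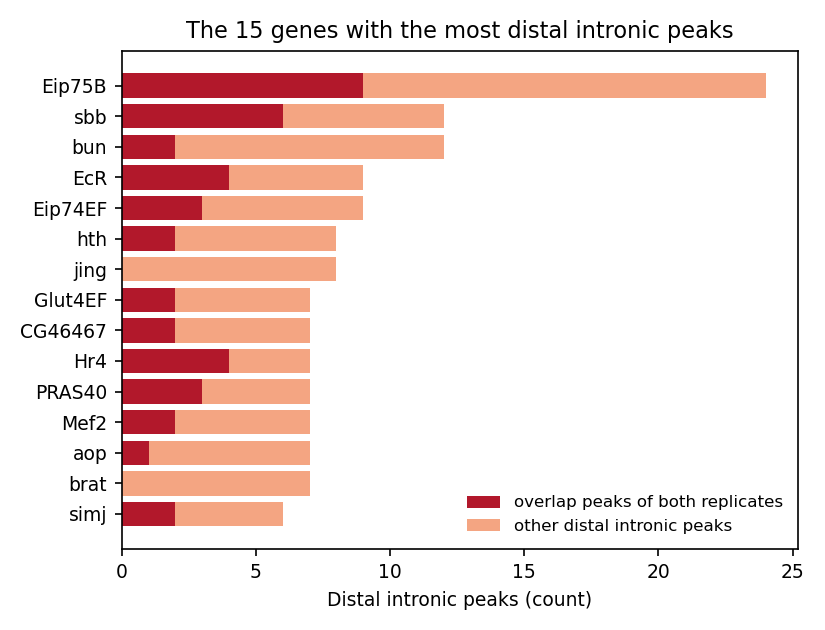
Number of distal intronic peaks (horizontal) in the 15 genes that hold the most (vertical), with ties at the last place, 6 peaks, decided by summed signal, split into those that overlap peaks of both replicates and the others. Eip75B holds 24 with 9 in both replicates, and jing and brat hold 8 and 7 with none in both, where 28.2% of all distal intronic peaks are in both.

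By gene list, peaks were densest in genes of the ecdysone response. Density is the number of peaks per Mb of intron that meets the rule, and it was 20.6 over all protein-coding genes. Of the 16 ecdysone response genes with such sequence, 12 were hosts, where 9.38% of all eligible genes are. These genes are long, with a median of 35004 bp, and 33.8% of all genes with more than 30000 bp were hosts. The ecdysone response genes held 73 peaks with a density of 131 per Mb, or 100 per Mb without Eip75B. Their median signal was 107, against 90.8 over all distal intronic peaks. The strongest was that in Kr-h1 at 407, followed by Hr3, a nuclear receptor (228 pooled, 106 in replicate 1 and 122 in replicate 2). Eip75B and ftz-f1, a nuclear receptor that gates later responses (196 pooled, 110 in replicate 1 and 72.7 in replicate 2), came next. Eip93F, br, Hr38 and Hr96 had eligible introns and no peak.

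Receptor tyrosine kinase and JNK pathway genes were hosts at 12 of 25, with 32 peaks and the second highest density, 83.1 per Mb. Raf, the kinase that passes on the Ras signal, had the strongest, with 238 pooled, 108 in replicate 1 and 126 in replicate 2. S, which helps export the EGF receptor's ligands, had 202 pooled, aop 168, and aos, a secreted inhibitor of that receptor, 154. Notch, Wnt, Hedgehog and BMP pathway genes were hosts at 12 of 29, with 51.6 per Mb. After mam, the strongest there were nkd, a feedback inhibitor of Wnt signalling (152), the receptor gene fz (130) and Dad, an inhibitory Smad (112).

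Chromatin and Polycomb genes were hosts at 3 of 28, or 10.7%, beside 9.38% of all eligible genes of any length. Of genes with at most 2000 bp of eligible intron, 0.846% were hosts. The hosts were osa, psq and Psc, with 15769, 34008 and 7276 bp of eligible intron. The density was 80.6 per Mb, or 64.4 without psq, and their eligible introns were short, with a median of 1040 bp. The peak in osa, a subunit of SWI/SNF complexes, had a signal of 182, that in psq, a BTB protein that binds GAGA elements, 120, and that in Psc, a Polycomb group protein, 111. BTB transcription factor genes were hosts at 9 of 16, with 46.9 per Mb. After fru, the strongest was mamo (125), then psq and chinmo, a BTB factor of neuronal timing (108). Both members in rib itself were weak in the pooled list, at 14.5 and 6.13, and its introns hold 1782 bp that meet the rule. Of the 70 distal intronic peaks with a signal under 50, 65 overlapped a stronger peak, and rib also had a promoter peak. These 2 values therefore do not give the strength of recovery at rib as a whole.

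Genes known from the organs that rib shapes were in between. Tracheal development genes were hosts at 16 of 47, with 47 peaks, 42.0 per Mb and a median signal of 82.8. The strongest was in ush, a cofactor of GATA factors, with 192 pooled, 83.6 in replicate 1 and 103 in replicate 2. It was followed by aop (168), hth (162) and fz (130). Salivary gland genes were hosts at 8 of 23, with 33.5 per Mb, or 24.4 without hth. After Btk and hth, the strongest were in zip, the heavy chain of non-muscle myosin (109), and puc, the JNK phosphatase (102).

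The cytoskeletal, segmentation, muscle and polarity lists were above the average of 20.6 per Mb with all genes, and under it without their gene with the most peaks. Leaving out the gene chosen for its many peaks mostly lowers a density, while the average keeps all genes. The fall under the average is therefore a description and not a test. The neuronal and axon guidance lists were under it in both cases. Actin, myosin and microtubule regulators were hosts at 7 of 33, with 28.8 per Mb, or 20.4 without Myo31DF. The strongest was in sn, the fascin gene (122), and shot, a spectraplakin, had 112. Segmentation and Hox genes were hosts at 6 of 20 (27.0 per Mb, or 17.9 without nkd), with Ubx at 114, hh at 105 and abd-A at 92.8. Muscle genes were hosts at 5 of 23 (26.0 per Mb, or 15.4 without Mef2), with kirre, which acts in myoblast fusion, at 180, Mef2 at 174 and how, an RNA-binding protein, at 144. Apical membrane and polarity genes were hosts at 5 of 19 (22.3 per Mb), with scrib at 130, ed at 104, pyd at 88.5 and Lac at 77.3. The neuronal list had 3 hosts of 30 (8.75 per Mb, or 5.33 without mam), mam, fru and dnc, a cAMP phosphodiesterase gene (110). The axon guidance and adhesion list had 9 of 42 (7.57 per Mb), with kirre, Fas3 (151), fz and side (117) the strongest. Cytoplasmic and mitochondrial ribosomal protein genes had 2 eligible genes each and no host.

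Gene length moved with these densities. The 2365 genes with at most 2000 bp of eligible intron held 18.4 peaks per Mb, those with 2001 to 10000 bp 40.7, those with 10001 to 30000 bp 27.1, and longer ones 13.3. Hosts were 0.846%, 13.1%, 22.7% and 33.8% of the genes in these groups, shortest first. The median of the chromatin and Polycomb list, 1040 bp, lies in the shortest group. The axon guidance list had a median of 36279 bp and a low density, but the ecdysone list, with a median of 35004 bp, had the highest. Lists share genes, such as hth, mam, fru, aop and psq, so their values are not independent. The part of gene length in the differences between lists was not tested.

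**Figure D4:**
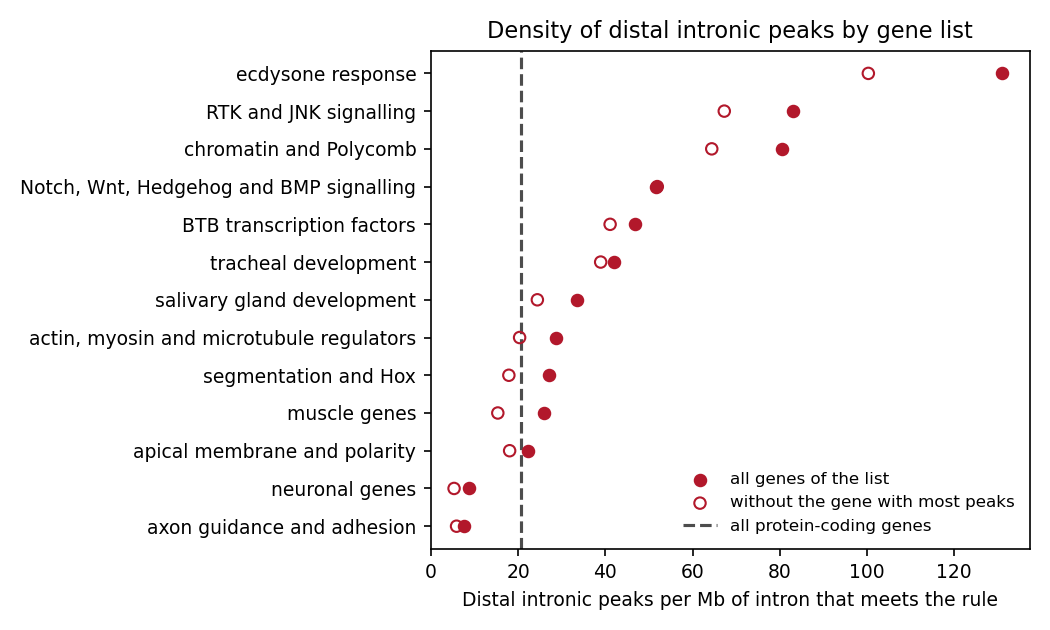
Distal intronic peaks per Mb of intron that meets the rule (horizontal) for 13 gene lists (vertical), for all genes of the list (filled) and without the gene with the most peaks (open); the dashed line is the value of all protein-coding genes, 20.6. The ecdysone response list is highest with and without Eip75B, at 131 and 100 per Mb, and the neuronal and axon guidance lists are lowest.

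Around the summits, 2 of the 18 motifs searched were more frequent than in sequence nearby. Presence on either strand within 50 bp of the summit was set against a window of equal length centred 250 bp away, and 11.1% of motifs passed the threshold. The flanks were not matched in composition, with a median G and C of 40.6% against 44.6% at summits. The part of composition in the motif differences was not tested. The GAGA element GAGAG, bound by GAGA factor and Pipsqueak, was at 167 summits (20.5%, exact interval 17.8% to 23.4%), against 120 flanks (14.7%). It was at the summit alone in 141 peaks and in the flank alone in 94 (exact McNemar test, two-sided, adjusted p 0.0238). The CA repeat CACACA was at 144 summits (17.7%, interval 15.1% to 20.5%), against 100 flanks (12.3%), at the summit alone in 125 and in the flank alone in 81 (adjusted p 0.0238). At all peaks of the list the shares were 19.2% for GAGAG and 14.7% for CACACA. Either motif was at 278 distal intronic summits (34.1%), and 33 had both, as at upSET.

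Both calls changed with the peaks used. In the peaks of replicate 2 alone, the share with GAGAG at summits minus that at flanks was -0.287 percentage points (adjusted p 1), and in those of replicate 1 alone the difference was 5.82 points (adjusted p 0.238). For CACACA the differences were 0.575 points in replicate 2 (adjusted p 1) and 7.03 in replicate 1 (adjusted p 0.0509). Without the 24 peaks in Eip75B they were 5.69 points for GAGAG (adjusted p 0.0639) and 4.55 for CACACA (adjusted p 0.110). With the flank on the other side the GAGAG difference was 3.44 points (adjusted p 0.479), and with a window of 25 bp on each side it was 2.45 (adjusted p 0.463). Beyond 5000 bp the CACACA difference was 1.37 points (adjusted p 1). With the flank 500 bp away both calls held, and TAATTA and AAAAAAA were less frequent at summits. Both motifs were spread over the width of the peak: GAGAG was at 22.6% in windows centred 100 bp before the summit and 20.6% at 100 bp after it, and at 13.5% and 11.2% at 500 bp on either side.

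**Figure D5:**
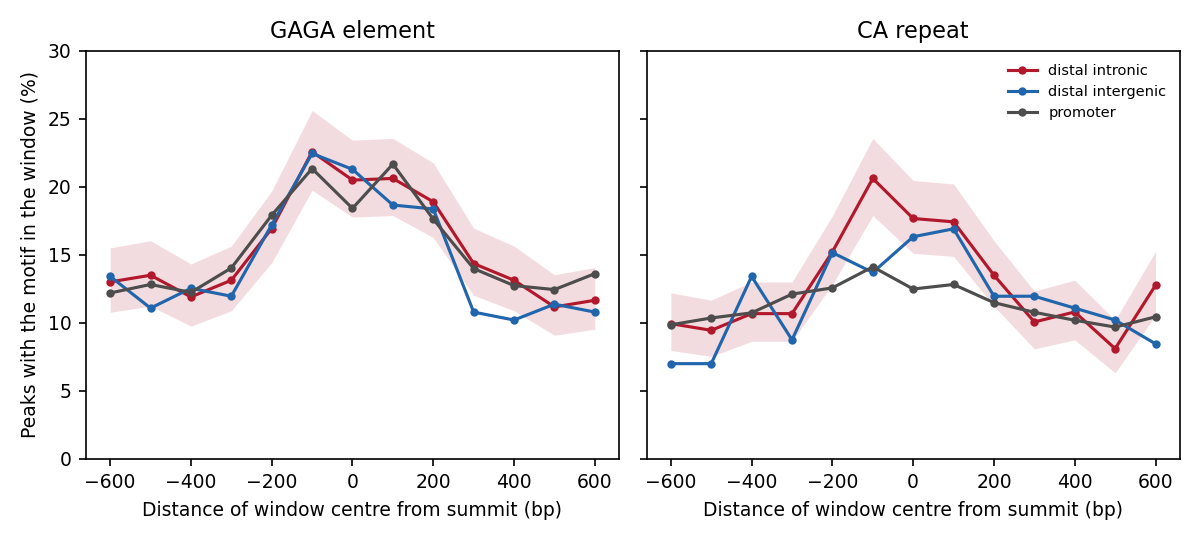
Share of peaks with GAGAG (left) and CACACA (right) in windows of 101 bp (vertical, percent) by distance of the window's centre from the summit (horizontal, bp), for distal intronic, distal intergenic and promoter peaks; the shaded band is the exact 95% interval of the distal intronic peaks. GAGAG is at 16.9% to 22.6% within 200 bp of distal intronic summits and at 11.2% to 14.4% from 300 bp on.

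The motifs of other factors did not stand out at these summits. CAGGTAG, the site of the early factor Zelda, was at 6 distal intronic summits and 2 flanks, and at 0.499% of all summits of the list. ACGTG, bound by the tracheal factor Trachealess with Tango, was at 65 summits and 64 flanks, and at 10.1% of all summits. The forkhead site TAAACA was at 102 summits and 89 flanks (11.2% of all summits). The nuclear receptor site AGGTCA was at 21 summits and 15 flanks (2% of all summits), and the E-box CANNTG at 343 of each (38.7% of all summits). No 7-letter word passed the threshold (0% of 8177, exact McNemar test), and 313 had an unadjusted p under 0.05. The word with the smallest p was CTCCCCC, at 39 summits and 10 flanks (adjusted p 0.193), followed by CCCCCTC, at 44 summits and 13 flanks. Most of the 10 leading words were C-rich on one strand. CCCTCCC was at 36 summits and 10 flanks, AGGGGGG at 41 summits and 14 flanks, CGCCCCC at 30 summits and 8 flanks, CCCTCTC at 38 summits and 12 flanks and AGAGGGG at 31 summits and 9 flanks. ATGGCCG was at 17 summits and 1 flank. Less frequent at summits were AGGAAAA, at 10 summits and 36 flanks, and GAGGAAA, at 5 summits and 26 flanks.

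Compared with promoter peaks, 3 of 18 motifs differed (16.7%), and distal intronic peaks lacked the elements of housekeeping promoters. Both classes are defined by distance from TSSs and these elements belong to promoters. Their lack is therefore a description, and the p-values add no support to it. TATCGATA, the element bound by Dref, was at 0 of 815 distal intronic summits, for which 3 counts of 815 would be a share of 0.368% and the exact 95% upper limit is 0.452%, against 81 promoter summits, or 3.38%, and 1.8% of all summits (odds ratio 0 with an upper bound of 0.133, Fisher's exact test, adjusted p 8.73e-10). Motif 1, GGTCACACT, was at 0 distal intronic summits, against 31 promoter summits, or 1.29%, and 0.716% of all summits (upper bound of the odds ratio 0.368, adjusted p 0.00192). Its call was lost without replicate 1 (adjusted p 0.0918), in the stronger 50% of peaks (0.0665), beyond 5000 bp (0.0908) and with a window of 25 bp on each side (0.162), with 0 distal intronic summits in each. CACACA was more frequent, at 17.7% of distal intronic summits, against 12.5% of promoter summits (odds ratio 1.50, interval 1.20 to 1.88, adjusted p 0.00195). That call was lost without replicate 1 (odds ratio 1.48, adjusted p 0.0918) and beyond 5000 bp (1.16, adjusted p 0.524). GAGAG was at 20.5% of distal intronic summits, against 18.4% of promoter summits (odds ratio 1.14, interval 0.930 to 1.40, adjusted p 0.349). Against distal intergenic summits none of the 18 passed (0%, Fisher's exact test), and 0 had an unadjusted p under 0.05. GAGAG there was at 21.3% and CACACA at 16.3% of distal intergenic summits. TATCGATA and GGTCACACT were each at 1 of 343 distal intergenic summits.

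Base composition at the summit moved with strength. G and C made up a median of 35.6% in the 101 bases at the 20 strongest distal intronic summits, 40.6% at ranks 21 to 100 and 45.5% at ranks 301 to 815. Under 30% G and C were 7 of the 20 strongest, among them Tlk, CHES-1-like and Btk, against 44 of the 515 at ranks 301 to 815. The flanks did not show this order, with 43.6% at the 20 strongest and 39.6% at ranks 301 to 815. At promoter peaks the 20 strongest had 31.2% and ranks 301 to 2395 had 45.5%. Distal intergenic peaks had 38.6% at the 20 strongest, of which 8 were under 30%. They had 41.6% at ranks 21 to 100, 45.5% at ranks 101 to 300 and 42.6% at ranks 301 to 343. Low G and C at the strongest summits was thus not particular to distal intronic peaks. Peaks with GAGAG had a median signal of 88.8, against 91.6 for those without it, and peaks with CACACA had 94.5, against 90.0 for those without it.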

How the data were processed

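Peak lists on dm6 were used for 1 group of 2 biological replicates. The authors deposited ranked regions and thresholded peaks per replicate and for the series, with a conservative list besides. Of the 3959 peaks of the conservative list, 3428 are in the series list with the same position and signal. The sources used here name neither aligner nor peak caller. Signal, as deposited, is the caller's measure of strength on a scale that is not stated. The score in the deposited lists is at least 830 in the series list. Without read counts the depth is unknown, and intervals cover the counting of peaks only.

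Positions were moved to count from 1. Ensembl release 115 (BDGP6.54) gave genes, exons and TSSs, and the Release 6 assembly gave sequence. An overlap of 1 bp or more counted as shared. Classes were compared with Fisher's exact test and summits with flanks by the exact McNemar test, both two-sided. Benjamini-Hochberg adjustment was applied within each set of tests, with a threshold of 0.05. A gene was eligible when any of its sequence met the rule. Peaks in groups are not independent. Gene lists (15) and shares of bases were described without a test. Python 3.11.15, numpy 2.4.6, pandas 2.3.3, scipy 1.17.1 and matplotlib 3.10.9 were used, and the tests were tried on simulated data.

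Named are the hosts of the 20 strongest peaks, the 15 genes with the most peaks, up to 4 hosts per list with the highest peaks, called motifs and the 10 7-letter words with the smallest p. Pits, Myc, Myo31DF, the genes just inside and outside the distance limit, and list genes without a peak were named after their values were seen. The rule for members, the lists and the motifs were chosen with earlier results of these data known. Alternatives were other peak lists, each replicate alone, other distances, TSS sets, overlaps, windows, flanks and word lengths. Leaving out peaks that overlap a stronger one, and leaving out those in Eip75B, were added after seeing the data.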

Additional observations from a re-analysis of the deposited data

Results flagged for a closer look

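Regions outside the series list also met the rule. The series' ranked list holds 4778 regions that pass the score of 830, of which 172 are not in the series list, and 37 of these are distal intronic. They lie in 15 genes, with 25 on 3R, 8 on 2L, 3 on 3L and 1 on 2R, and their median signal is 115, against 90.8 for the 815 peaks. They were found in a list that the comparisons above do not use, and there are no control samples to set them against. They were not added to the counts per gene, per arm or per gene list.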

How the results depend on the processing

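The share of distal intronic peaks was 16.0% to 16.2% in the lists of single replicates, 16.5% in the stronger 50% of peaks, 25.1% beyond 1000 bp, 9.51% beyond 5000 bp and 16.6% with TSSs of all annotated genes. Host genes numbered 233 to 276 with either replicate left out, 250 in the stronger 50% and 229 beyond 5000 bp. Called motifs at summits fell to 0 without replicate 1, without replicate 2, in the conservative list, in the stronger 50% and without the peaks in Eip75B. The count was 1 beyond 5000 bp (CACACA lost), with a window of 25 bp or with the flank on the other side (GAGAG lost in both), and 4 with a window of 100 bp or a flank 500 bp away. The GAGAG difference reversed without replicate 1, at -0.287 percentage points, and was 5.82 without replicate 2. Against promoter peaks, 1 motif was left beyond 5000 bp, and the odds ratio for the conservative list was 0.767, no longer past the threshold. The signal odds ratio against distal intergenic peaks reversed to 1.02 without peaks within 20 kb of rib and to 1.08 with all TSSs, neither past the threshold, and at the upper quartile it was 0.675. Words called numbered 1 without replicate 2, 8 with a flank 500 bp away and 11 at 6 letters. Lists of single replicates and the stronger 50% hold fewer peaks. For the others the cause was not tested. No paired analysis was possible because there is only 1 group. Precision is limited by the unknown depth, the pooled signal and the small number of replicates.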
